A study of Mus musculus with 4 samples.

Results

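The genes described here are 8 that are transcribed by type 1 conventional dendritic cells (cDC1) of the mouse: Xcr1, Clec9a, Flt3, Batf3, Zbtb46, Naaa, Itgae and Cd24a. They were taken by gene symbol, and all 8 were found among the 24784 rows of the deposited expression table. The table holds polyadenylated RNA of cells labelled tumour-associated macrophages, sorted by flow from livers of male mice aged 6 to 8 weeks that carried tumours of Hepa 1-6, a mouse hepatoma line. Both groups had received Hepa 1-6 cells. There were 2 libraries labelled OXCT1mKO, with Oxct1 as the gene named in the genotype, and 2 labelled control. Oxct1 encodes the mitochondrial transferase that activates acetoacetate in ketone body use. The sources used here do not give the allele, the promoter that drives its deletion, the antibodies of the sort or the number of animals behind each library.

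Dendritic cells take up material in tissues and present it to T cells. The cDC1 lineage is known for moving fragments of dead cells onto MHC class I molecules, a process called cross-presentation that primes CD8 T cells, and for making interleukin 12 in tumours. Its development in the mouse depends on the cytokine FLT3L and its receptor FLT3, and on the transcription factors IRF8, BATF3, ID2 and NFIL3. XCR1 is a chemokine receptor found almost exclusively on cDC1, and CLEC9A is a lectin that binds actin exposed by dead cells, whereas the other genes of the set are also transcribed elsewhere.

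Levels are given in RPKM, a read count divided by gene length in kilobases and by library size. The RPKM values of a library summed to between 325034 and 377575. The values come without read counts. The labels' extraction text names a microarray, whereas the series is recorded as sequencing, and the values were read as sequencing data because they are deposited as RPKM and the lowest of them step by gene length. The commonest step among the lowest values, set against GENCODE exon lengths, points to roughly 20400000 to 22900000 reads a library, an approximate figure that rests on 47 to 96 low genes in each. Oxct1 had 14.7 and 15.4 RPKM in OXCT1mKO libraries, against 19.3 and 20.3 RPKM in control libraries, which is 15.1 ± 0.483 RPKM against 19.8 ± 0.685 RPKM (SD, n = 2 each). Its log2 fold change was -0.37 ± 0.09 (SE, limma adjusted p 0.0346), and that call was lost under several settings. The level of a whole gene does not show whether an exon is missing, and BC037032 shares 467 of the 3701 exon bases of Oxct1 on the opposite strand, at under 1 RPKM in every library. All 12 macrophage and Kupffer cell markers were above 0 in every library, but so were the T cell, B cell, endothelial and hepatocyte markers in the table, so detection alone does not bear on the macrophage label. Among the macrophage markers, Csf1r, the receptor that sustains macrophages, stood at 128 and 115 RPKM in OXCT1mKO libraries, against 45.8 and 28.8 RPKM in control libraries.

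Most of the cDC1 genes were more abundant in the OXCT1mKO libraries. Xcr1, Clec9a, Flt3, Zbtb46, Naaa and Itgae rose, 6 of the 8 genes, while Batf3 and Cd24a did not pass the test. By the ratio of means the rise was steepest for the receptors, whose mean RPKM was 10.5-fold higher for Xcr1, 8.84-fold for Flt3 and 6.21-fold for Clec9a. It was smaller for Naaa (3.25-fold), Zbtb46 (2.87-fold) and Itgae (2.15-fold). The ratios of Xcr1 and Flt3 rest on low control means of 0.288 and 0.867 RPKM. On the log2(RPKM + 1) scale used for the test, the change of Naaa (1.70) was above that of Xcr1 (1.64). In bulk RNA, more cells of a type and more RNA per cell cannot be told apart.

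The test was limma's moderated linear model on log2(RPKM + 1) over 12523 genes with a mean of at least 1 RPKM, with Benjamini-Hochberg adjustment over all of them and a threshold of 0.05. Of all genes tested, 32.8% passed, 16.4% upward and 16.4% downward, or 2058 and 2052 genes. With RPKM sums set equal apart from globin genes, 2718 genes were called upward and 1479 downward. Rises of 1 or more on the log2 scale made up 4.25% of all genes tested and 5 of these 8 genes, all but Itgae among the 6. The median log2 fold change was 1.44 over the 8 genes and 0.0045 over all genes tested. Both OXCT1mKO libraries lay above both control libraries for the same 6 genes, which held for 37.6% of all genes tested. The groups did not overlap in either direction for 7 of the 8 genes and for 74.7% of all genes tested. All 8 genes passed the filter on low values, but Xcr1 and Flt3, with control means under 1 RPKM, passed it through the OXCT1mKO libraries alone and so had to differ. Without that filter both kept their call (limma adjusted p 0.0351 each). None of the 6 calls held when either OXCT1mKO library was left out (limma adjusted p 0.0700 to 0.168), fits in which 1 gene or 10 genes of the whole table passed.

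**Figure D1:**
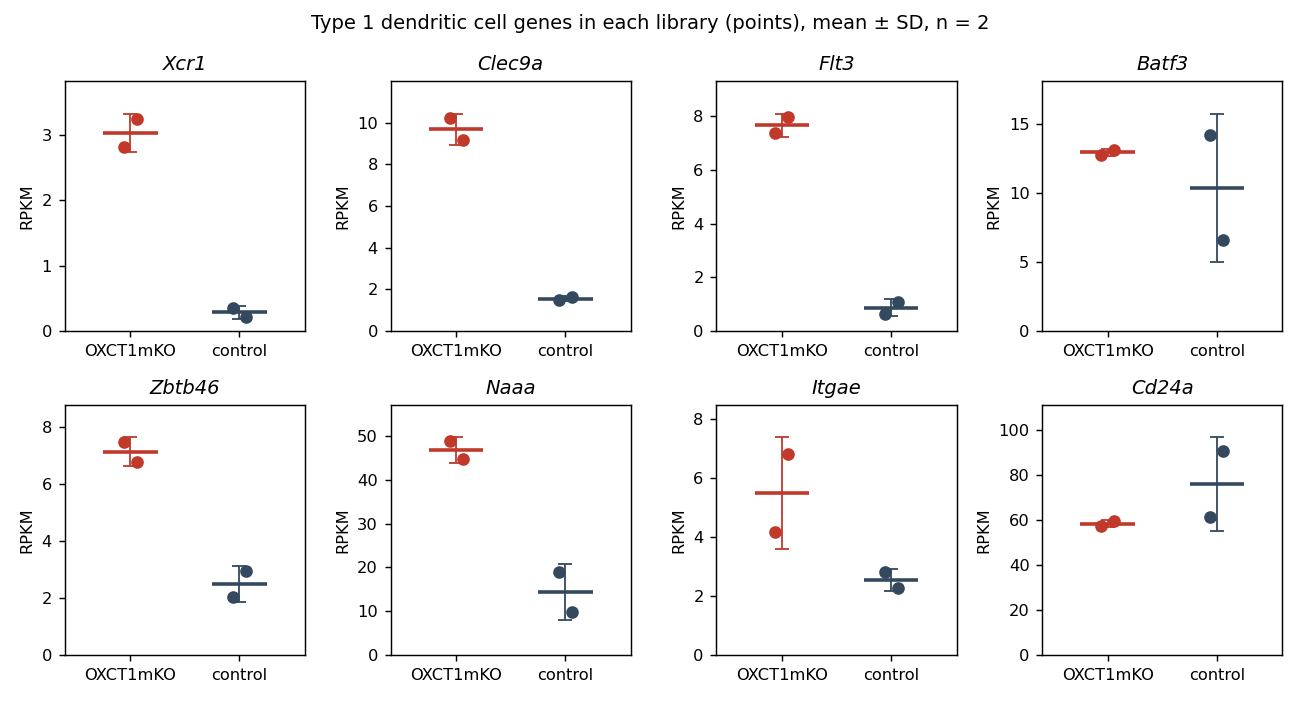
RPKM of the 8 cDC1 genes in each library, with OXCT1mKO in red at the left of each panel and control in dark blue at the right. Points are single libraries, horizontal lines are means and whiskers are SD (n = 2), and each axis starts at 0. Both OXCT1mKO points lie above both control points for every gene except Batf3, where they lie between the control points, and Cd24a, where they lie below them.

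Xcr1 is the receptor of the chemokine XCL1, which natural killer cells and CD8 T cells release. The gene lies on the minus strand of chromosome 9 of build GRCm38, from 123852315 to 123862029. It had 2.82 and 3.23 RPKM in OXCT1mKO libraries, against 0.362 and 0.215 RPKM in control libraries. The groups were far apart, and the control values were the lowest of the set, resting on an estimated 36 and 22 reads, against 268 and 294 reads in OXCT1mKO libraries. The log2 fold change was 1.64 ± 0.15 (SE, limma adjusted p 0.0127). It depends on the pseudocount at such levels and was 3.03 with 0.1 RPKM added in place of 1.

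Clec9a encodes the dead-cell receptor that cDC1 use for cross-presentation and lies on the plus strand of chromosome 6, from 129408862 to 129424763. It had 10.2 and 9.15 RPKM in OXCT1mKO libraries, against 1.47 and 1.65 RPKM in control libraries. Libraries of a group differed little, by 1.12-fold in each. The log2 fold change was 2.06 ± 0.12 (SE, limma adjusted p 0.0127). The neighbouring lectin gene Clec1b shares 184 of the 3293 exon bases of Clec9a on the same strand, so some reads could be counted for either. Clec1b had 47.6 and 39.7 RPKM in OXCT1mKO libraries, against 22.8 and 21.2 RPKM in control libraries, a smaller log2 fold change of 0.95 ± 0.12.

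Flt3 encodes the receptor tyrosine kinase through which FLT3L sustains dendritic cells and their precursors. It lies on the minus strand of chromosome 5, from 147330741 to 147400489. It had 7.36 and 7.97 RPKM in OXCT1mKO libraries, against 0.642 and 1.09 RPKM in control libraries. Its log2 fold change of 2.22 ± 0.16 (SE, limma adjusted p 0.0127) was the largest of the 8 on the log2(RPKM + 1) scale. The ligand gene Flt3l, in contrast, was at 6.41 and 6.53 RPKM in OXCT1mKO libraries, against 7.42 and 5.59 RPKM in control libraries, and did not pass (log2 fold change 0.0035 ± 0.15, limma adjusted p 0.987).

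Among the transcription factors, Zbtb46 rose and Batf3 did not pass. Zbtb46, a zinc finger factor that marks conventional dendritic cells and is also transcribed in endothelium, lies on the minus strand of chromosome 2, from 181387762 to 181459426. It had 7.48 and 6.77 RPKM in OXCT1mKO libraries, against 2.04 and 2.92 RPKM in control libraries. The groups were apart, with a log2 fold change of 1.23 ± 0.16 (SE, limma adjusted p 0.0129). Batf3 encodes the AP-1 family factor that pairs with JUN proteins and IRF8 at cDC1 genes, and lies on the plus strand of chromosome 1, from 191097847 to 191108945. It had 12.8 and 13.2 RPKM in OXCT1mKO libraries, against 14.2 and 6.60 RPKM in control libraries. The controls differed by 2.15-fold and enclosed both OXCT1mKO values. The log2 fold change was 0.38, with a 95% confidence interval of -0.49 to 1.24 (limma adjusted p 0.409), an interval whose upper end reaches the estimate for Zbtb46. It was 0.88 without control 1 (limma adjusted p 0.0227) and -0.12 without control 2 (limma adjusted p 0.336).

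Naaa encodes an acid amidase of lysosomes that breaks down palmitoylethanolamide, and is transcribed in macrophages as well as in cDC1. It lies on the minus strand of chromosome 5, from 92257659 to 92278170. It had 48.9 and 44.7 RPKM in OXCT1mKO libraries, against 18.9 and 9.87 RPKM in control libraries. The groups were apart although the controls differed by 1.92-fold, and the log2 fold change was 1.70 ± 0.30 (SE, limma adjusted p 0.0187). Testing every gene above 0 raised that p to 0.0515. Itgae encodes the integrin chain CD103, found on cDC1 and on resident T cells, and lies on the plus strand of chromosome 11, from 73090583 to 73147446. It had 4.15 and 6.82 RPKM in OXCT1mKO libraries, against 2.81 and 2.28 RPKM in control libraries, the widest spread of the 8 between the OXCT1mKO libraries in relative terms. Its log2 fold change of 0.84 ± 0.23 (SE) only just passed (limma adjusted p 0.0481). The call was lost without the variance trend (limma adjusted p 0.0514), without the filter (0.109) and without any 1 of the 4 libraries (0.0828 to 0.168).

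Cd24a encodes a small glycoprotein on cDC1 that is also abundant on epithelial cells, B cells, neutrophils and maturing red cells. It lies on the plus strand of chromosome 10, from 43578284 to 43584265. It had 57.3 and 59.4 RPKM in OXCT1mKO libraries, against 61.3 and 90.8 RPKM in control libraries. The OXCT1mKO values were just below control 1, and control 2 stood well above the other libraries. The log2 fold change of -0.35 had a 95% confidence interval of -0.86 to 0.16 and did not pass (limma adjusted p 0.220). It was -0.63 without control 1 (limma adjusted p 0.0245) and -0.07 without control 2 (limma adjusted p 0.525).

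Since RPKM is per length, the levels of the 8 genes can also be ranked within a group. In OXCT1mKO libraries the order of means was Cd24a at 58.3, Naaa at 46.8, Batf3 at 12.97, Clec9a at 9.68, Flt3 at 7.67, Zbtb46 at 7.13, Itgae at 5.48 and Xcr1 at 3.03 RPKM. The library ranges of Flt3 and Zbtb46 overlapped there, as did those of Zbtb46 and Itgae. In control libraries it was Cd24a at 76.1, Naaa at 14.4, Batf3 at 10.4, Itgae at 2.55, Zbtb46 at 2.48, Clec9a at 1.56, Flt3 at 0.867 and Xcr1 at 0.288 RPKM, with overlap between Naaa and Batf3 and between Itgae and Zbtb46. Clec9a and Flt3 thus stood above Itgae and Zbtb46 in OXCT1mKO libraries and below both in control libraries, although the ranges of Flt3 and Zbtb46 overlapped in the OXCT1mKO libraries.

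Promoter sequences were searched for the letters that BATF3 and its partners are known to bind. RefSeq's table for build GRCm38.p6 holds windows of 250 bases before to 50 after the start for 6 of the 8 genes, Xcr1, Clec9a, Flt3, Batf3, Zbtb46 and Naaa. Both strands were searched for the AP-1 site TGANTCA, for GAAA directly followed by TGANTCA (a composite of an interferon regulatory factor half-site and AP-1), for TTTC, 4 free bases and TGANTCA (the spaced form of that composite), and for GAAA, 2 free bases and GAAA (an interferon response element). The composites contain the AP-1 letters, so their matches are a subset of the AP-1 matches. The promoters of Zbtb46 at chr2:181424339-181424638 (minus strand), Xcr1 at chr9:123861980-123862279 (minus strand), Clec9a at chr6:129408612-129408911 (plus strand) and Flt3 at chr5:147400440-147400739 (minus strand) are printed 5′ to 3′, with the match in capitals. Zbtb46 is printed because it alone holds a match, and the receptor genes because their ratios of mean RPKM were the largest of the set.
Zbtb46: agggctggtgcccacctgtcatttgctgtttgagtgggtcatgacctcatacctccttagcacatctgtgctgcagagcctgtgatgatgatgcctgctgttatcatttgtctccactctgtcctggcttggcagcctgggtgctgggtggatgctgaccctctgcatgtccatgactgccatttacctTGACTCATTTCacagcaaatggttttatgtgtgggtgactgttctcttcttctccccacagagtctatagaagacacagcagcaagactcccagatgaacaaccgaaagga
Xcr1: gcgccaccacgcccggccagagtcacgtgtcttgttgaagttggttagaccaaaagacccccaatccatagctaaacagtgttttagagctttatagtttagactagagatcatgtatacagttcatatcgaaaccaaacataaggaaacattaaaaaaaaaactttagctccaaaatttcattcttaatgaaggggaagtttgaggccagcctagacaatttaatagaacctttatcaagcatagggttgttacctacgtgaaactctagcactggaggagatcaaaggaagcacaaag
Clec9a: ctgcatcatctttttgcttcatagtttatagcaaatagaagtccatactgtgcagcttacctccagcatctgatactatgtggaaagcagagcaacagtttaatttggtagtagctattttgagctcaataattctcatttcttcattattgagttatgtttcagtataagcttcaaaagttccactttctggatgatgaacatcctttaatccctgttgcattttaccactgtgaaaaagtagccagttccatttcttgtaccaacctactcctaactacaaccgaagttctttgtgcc
Flt3: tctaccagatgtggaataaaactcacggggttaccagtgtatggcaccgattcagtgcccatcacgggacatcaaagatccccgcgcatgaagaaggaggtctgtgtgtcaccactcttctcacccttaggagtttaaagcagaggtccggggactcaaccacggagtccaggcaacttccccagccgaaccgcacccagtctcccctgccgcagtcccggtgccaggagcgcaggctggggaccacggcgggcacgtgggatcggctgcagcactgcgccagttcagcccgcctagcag

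Zbtb46 alone among the 6 promoters held a match. Its capitals start 61 bases before the start of transcription and carry the AP-1 letters and, on the opposite strand, the adjacent composite. The AP-1 letters were found in 7.81% of the 32851 windows of the table and the adjacent composite in 0.125% of them. The spaced composite, in 0.119% of windows, and the interferon response element, in 3.44%, were in none of the 6. The RefSeq start of Zbtb46 lies inside the gene as GENCODE draws it, downstream of its outermost start. Among 19 other cDC1 genes with a window, Cd207 and Itgax held AP-1 letters, Cd207 held the adjacent composite, and Dpp4, Ifi205 and Tlr11 held the interferon response element. A match is a run of letters and not a measured binding site, and these windows leave out enhancers.

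A further list of 22 genes of cDC1 development, uptake and signalling was read in the same fit. Of these, 21 had a row under the symbol used and 20 were tested, of which 14 rose, 1 fell and 5 did not pass, with a median log2 fold change of 0.91. Over all genes tested, 16.4% rose and 16.4% fell. Wdfy4, which cDC1 need for cross-presentation of cell-bound antigen, had 13.2 and 15.3 RPKM in OXCT1mKO libraries, against 3.11 and 3.10 RPKM in control libraries (log2 fold change 1.89 ± 0.11). Irf8, the factor that fixes cDC1 fate, had 59.3 and 65.5 RPKM in OXCT1mKO libraries, against 34.8 and 30.8 RPKM in control libraries (0.91 ± 0.11). Nfil3, which acts early in that fate, rose by 0.76 ± 0.11. Id2, the inhibitor of E proteins, was 135 and 119 RPKM in OXCT1mKO libraries, against 195 and 120 RPKM in control libraries, and did not pass (limma adjusted p 0.425).

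The sensors Tlr3, for double-stranded RNA, and Tlr11, for profilin of parasites, rose by 0.75 ± 0.12 and 1.33 ± 0.18. Tlr11 had 2.22 and 1.73 RPKM in OXCT1mKO libraries, against 0.280 and 0.0819 RPKM in control libraries. Il12b, the shared chain of interleukin 12 and 23, had 7.46 and 10.01 RPKM in OXCT1mKO libraries, against 1.97 and 2.98 RPKM in control libraries (1.49 ± 0.21). Other rises were those of Cd207, the lectin langerin (1.85 ± 0.38), Btla, an inhibitory receptor (1.39 ± 0.37), Ifi205 (1.38 ± 0.13), the peptidase gene Dpp4 (1.32 ± 0.15), Itgax, which encodes CD11c (1.15 ± 0.24), the lysosomal thioesterase gene Ppt1 (1.06 ± 0.10), Rab7b (0.91 ± 0.09) and the scavenger receptor gene Cd36 (0.86 ± 0.15). All 14 rises had a limma adjusted p between 0.0127 and 0.0458. Tlr11 and Cd207, with control means of 0.181 and 0.654 RPKM, passed the filter on low values through the OXCT1mKO libraries alone and so had to differ. Without that filter the calls of Cd207 (limma adjusted p 0.0678), Btla (0.105) and Itgax (0.0668) were lost. Several of these genes are also transcribed by macrophages or monocytes. The single fall was that of Snx22, a sorting nexin gene, which had 36.6 and 39.0 RPKM in OXCT1mKO libraries, against 46.8 and 53.9 RPKM in control libraries (-0.40 ± 0.11, limma adjusted p 0.0455). That call was lost without the filter (limma adjusted p 0.0745), without the variance trend (0.0601), with RPKM sums set equal apart from globin genes (0.0722), and without control 2 (0.0709) or either OXCT1mKO library (0.245 and 0.164).

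Cadm1, Ly75 and Plekha5 did not pass, with log2 fold changes of 0.57, 0.36 and -0.08. Cd8a, carried by cDC1 of lymphoid organs and by CD8 T cells, was 3.73 and 11.7 RPKM in OXCT1mKO libraries, against 22.9 and 17.6 RPKM in control libraries, and did not pass either (-1.44 ± 0.48, limma adjusted p 0.0762). Gcsam was under the filter, at 1.09 and 0.769 RPKM in OXCT1mKO libraries, against 0.0668 and 0.0295 RPKM in control libraries.

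**Figure D2:**
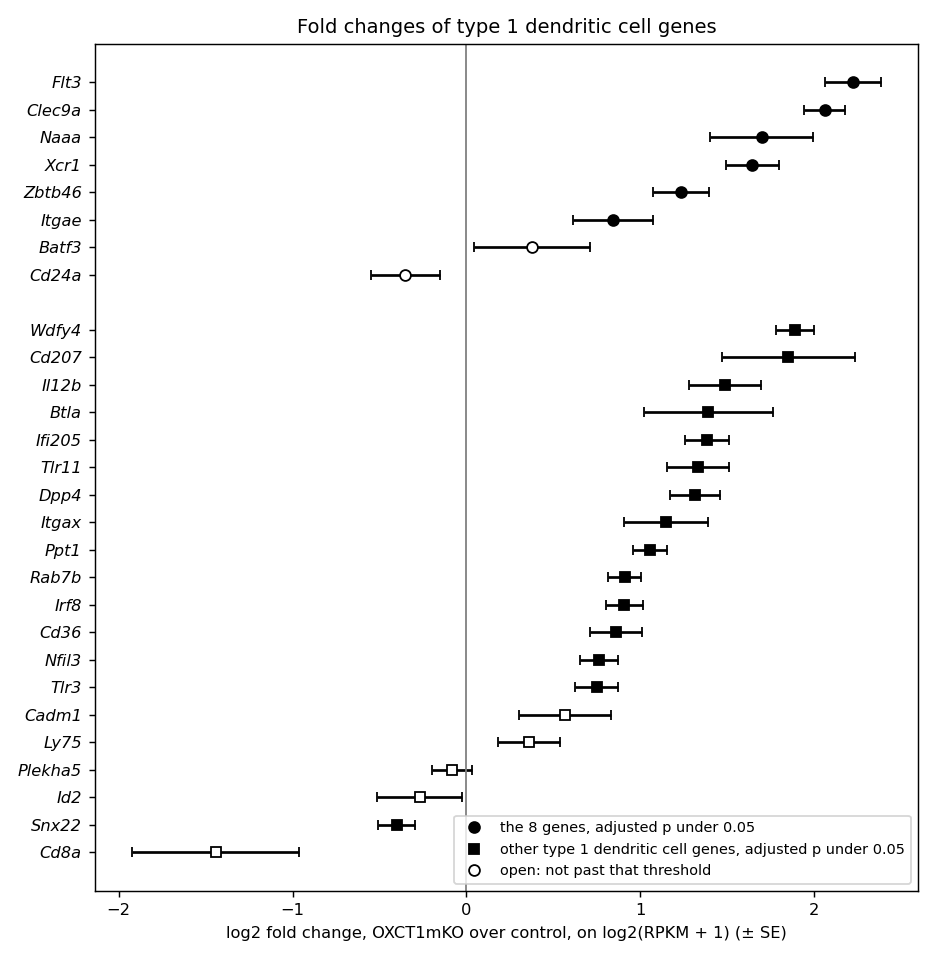
Log2 fold change of OXCT1mKO over control, on the log2(RPKM + 1) scale with SE, for the 8 genes (circles) and for 20 other cDC1 genes (squares), each set sorted from high to low. Filled symbols passed a limma adjusted p of 0.05 and open ones did not. Flt3 and Clec9a stand at 2.22 and 2.06 and Cd24a at -0.35, and among the other genes Wdfy4 leads at 1.89 while Snx22, at -0.40, is the single filled symbol left of 0.

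The ligands, dimer partners and related enzymes of the 8 genes gave a mixed picture: of 15 tested, 6 rose, 1 fell and 8 did not pass. Over all genes tested, 16.4% rose and 32.8% passed in either direction. Xcl1, the ligand of XCR1, was 17.8 and 41.7 RPKM in OXCT1mKO libraries, against 39.7 and 41.5 RPKM in control libraries, so that OXCT1mKO 1 alone stood apart (limma adjusted p 0.309). Syk, the kinase that CLEC9A signals through, had 37.3 and 39.6 RPKM in OXCT1mKO libraries, against 12.8 and 18.8 RPKM in control libraries (1.25 ± 0.19). Among the AP-1 and IRF partners, Jun rose by 1.20 ± 0.18 and Batf2, which can stand in for BATF3 in mice, by 1.13 ± 0.13. Junb, Jund, Batf and Irf4 did not pass, with log2 fold changes of 0.35, 0.10, 0.25 and 0.27.

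Itgb7, which encodes the chain that pairs with CD103, had 28.9 and 32.7 RPKM in OXCT1mKO libraries, against 15.9 and 18.3 RPKM in control libraries (0.82 ± 0.12). The gene of the ligand of that pair, Cdh1 (E-cadherin), rose by 1.10 ± 0.17 at lower levels, 6.65 and 4.92 RPKM in OXCT1mKO libraries, against 2.35 and 1.96 RPKM in control libraries. Around Naaa, the acid ceramidase gene Asah1 rose by 0.69 ± 0.09, the amide hydrolase gene Faah fell by 0.66 (± 0.12), and Napepld, which makes the substrates of NAAA, did not pass (-0.16 ± 0.16). Siglecg, a receptor for CD24, did not pass (0.56 ± 0.28).

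Genes of cross-presentation and of the signals that cDC1 give to T cells were counted from lists as well. Of 15 cross-presentation genes, 5 rose, 1 fell and 9 did not pass, with a median of 0.33. The 6 calls among 15 genes were near the 32.8% of all genes tested that passed in either direction. By direction, 16.4% of all genes tested rose and 16.4% fell. The rises were led by Cybb, the catalytic chain of the phagocyte oxidase (1.53 ± 0.17), Rab43, a small GTPase needed for cross-presentation by cDC1 (1.26 ± 0.11), and Tapbp, which loads peptides on class I molecules (0.62 ± 0.08), and the translocon gene Sec61a1 fell by 0.35 (± 0.09). Of 10 tested cytokine, chemokine and costimulator genes, 8 rose and 2 did not pass, with a median of 0.97, while 16.4% of all genes tested rose. The rises included Cxcl9, which draws T cells (1.65 ± 0.29), Cd86 (1.20 ± 0.16) and Cd80 (1.14 ± 0.19), the ligands of CD28.

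Lists of other dendritic cells were counted against the 16.4% of all genes tested that rose and the 32.8% that passed in either direction. Among 9 tested genes of type 2 conventional dendritic cells, 5 rose and 4 did not pass, with a median of 0.88 and Cd209a, a lectin of the DC-SIGN family, in the lead (2.39 ± 0.33). Among 9 tested plasmacytoid dendritic cell genes, 4 rose and 5 did not pass, with a median of 0.91, for example Tlr9 (1.43 ± 0.14), Tlr7 (1.13 ± 0.14) and Siglech (1.11 ± 0.24). Tlr9 and Siglech, with control means of 0.757 and 0.781 RPKM, also passed the filter through the OXCT1mKO libraries alone. The same held for Tnip3, a counted rise of the type 2 list with a control mean of 0.964 RPKM. Among 9 tested genes of mature dendritic cells, 3 rose, Cd83 (1.94 ± 0.16), Ccl22 (1.53 ± 0.26) and Il4i1 (1.48 ± 0.11), and 6 did not pass, with a median of 0.37. Their share of calls in either direction was near the 32.8% of all genes tested. All 3 calls were rises, however, and 16.4% of all genes tested rose. Of 11 genes of dendritic cell development and growth factor response, 7 rose and 4 did not pass, with a median of 1.09, led by the GM-CSF receptor chain Csf2rb (1.97 ± 0.18), Csf1r (1.71 ± 0.23) and Csf2ra (1.57 ± 0.09). Csf1r is counted in the list of macrophage and Kupffer cell genes as well.

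Macrophage and monocyte genes rose in the same libraries. Of 12 macrophage and Kupffer cell genes, 8 rose and 4 did not pass (median 1.23), and of 9 tested monocyte genes, 7 rose and 2 did not pass (median 1.60). The share of all genes tested that rose was 16.4%. The Kupffer cell genes Clec4f (4.43 ± 0.59), Cd5l (3.01 ± 0.25) and Vsig4 (2.97 ± 0.28) had the largest changes of the first list. In the monocyte list these were Ccr2 (2.24 ± 0.17), Ace (2.04 ± 0.26) and F13a1 (1.86 ± 0.21). Whether the rise of the cDC1 genes exceeds that of these lists was not tested.

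**Figure D3:**
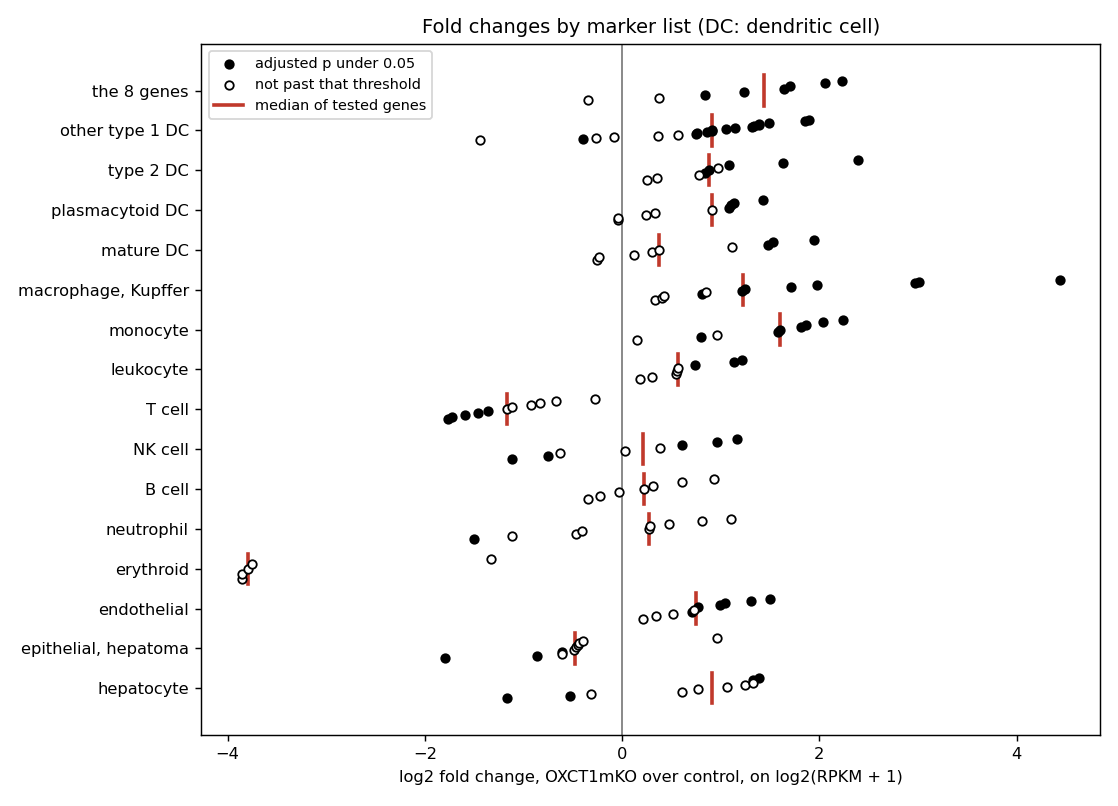
Log2 fold change of OXCT1mKO over control for the tested genes of 16 marker lists, 1 point per gene, filled where the limma adjusted p was under 0.05, with the median of each list as a red line. The medians of the 8 genes (1.44), of monocyte genes (1.60) and of macrophage and Kupffer cell genes (1.23) lie to the right, and those of T cell (-1.17), epithelial and hepatoma (-0.48) and erythroid genes (-3.80) lie left of 0.

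Some transcripts shared by all leukocytes were also more abundant in the OXCT1mKO libraries. Ptprc, which encodes the leukocyte antigen CD45, had 62.0 and 62.4 RPKM in OXCT1mKO libraries, against 27.7 and 28.0 RPKM in control libraries (1.13 ± 0.08, limma adjusted p 0.0127). Of 8 leukocyte genes, 3 rose and 5 did not pass, with a median of 0.56, while 16.4% of all genes tested rose. Each of the 8 cDC1 genes was therefore also expressed per 100 RPKM of Ptprc. By that measure Xcr1 was 4.54 and 5.18 in OXCT1mKO libraries, against 1.31 and 0.769 in control libraries, a ratio of means of 4.69. Flt3 was 11.9 and 12.8 in OXCT1mKO libraries, against 2.32 and 3.90 in control libraries, and Clec9a was 16.5 and 14.7 in OXCT1mKO libraries, against 5.32 and 5.88 in control libraries. These 3 receptor genes stayed apart between groups, and they did so per 100 RPKM of Itgax, Csf1r and Zbtb46 as well. Xcr1 and Flt3 had passed the filter on low values through the OXCT1mKO libraries alone. Per 100 RPKM of Ptprc, 5 of the 8 genes lay above both control libraries and 2 below both. The share of all genes that stay apart on these scales was not counted, and it was 74.7% in plain RPKM.

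The other genes of the 8 behaved differently from these receptor genes per 100 RPKM of Ptprc. Zbtb46, at 12.1 and 10.9 in OXCT1mKO libraries, against 7.38 and 10.4 in control libraries, and Naaa, at 78.8 and 71.7 in OXCT1mKO libraries, against 68.4 and 35.3 in control libraries, lay above both control libraries but came close to 1 of them each. Itgae overlapped, at 6.69 and 10.9 in OXCT1mKO libraries, against 10.2 and 8.15 in control libraries. Batf3 was lower, at 20.6 and 21.1 in OXCT1mKO libraries, against 51.3 and 23.6 in control libraries, and so was Cd24a, at 92.3 and 95.2 in OXCT1mKO libraries, against 222 and 324 in control libraries. Per 100 RPKM of Csf1r, Naaa was 38.3 and 38.8 in OXCT1mKO libraries, against 41.4 and 34.3 in control libraries, and the groups overlapped. Zbtb46 overlapped per 100 RPKM of Itgax and of Csf1r, with ratios of means of 1.23 and 0.80. Itgae lay below both control libraries per 100 RPKM of Csf1r, with a ratio of means of 0.65.

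These relative changes were also fitted after subtracting the mean log2 level of the 8 leukocyte genes in each library, a setting added after the data were seen. It shifted the median of all genes tested to -0.65, and 7691 of them then passed, 319 upward and 7372 downward, so each value is a change relative to the leukocyte genes. Flt3 rose by 1.57, Clec9a by 1.41, Naaa by 1.04, Xcr1 by 0.99 and Zbtb46 by 0.58 (limma adjusted p at most 0.0419). Itgae did not pass at 0.19 (limma adjusted p 0.505), nor did Batf3 at -0.28 (limma adjusted p 0.313), and Cd24a fell by 1.00 (limma adjusted p 0.00058). All genes share the subtracted value and its error. The fit pools variance over genes as if that error were separate in each. The adjusted p-values of this setting are therefore too small, and the changes are given as a description.

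**Figure D4:**
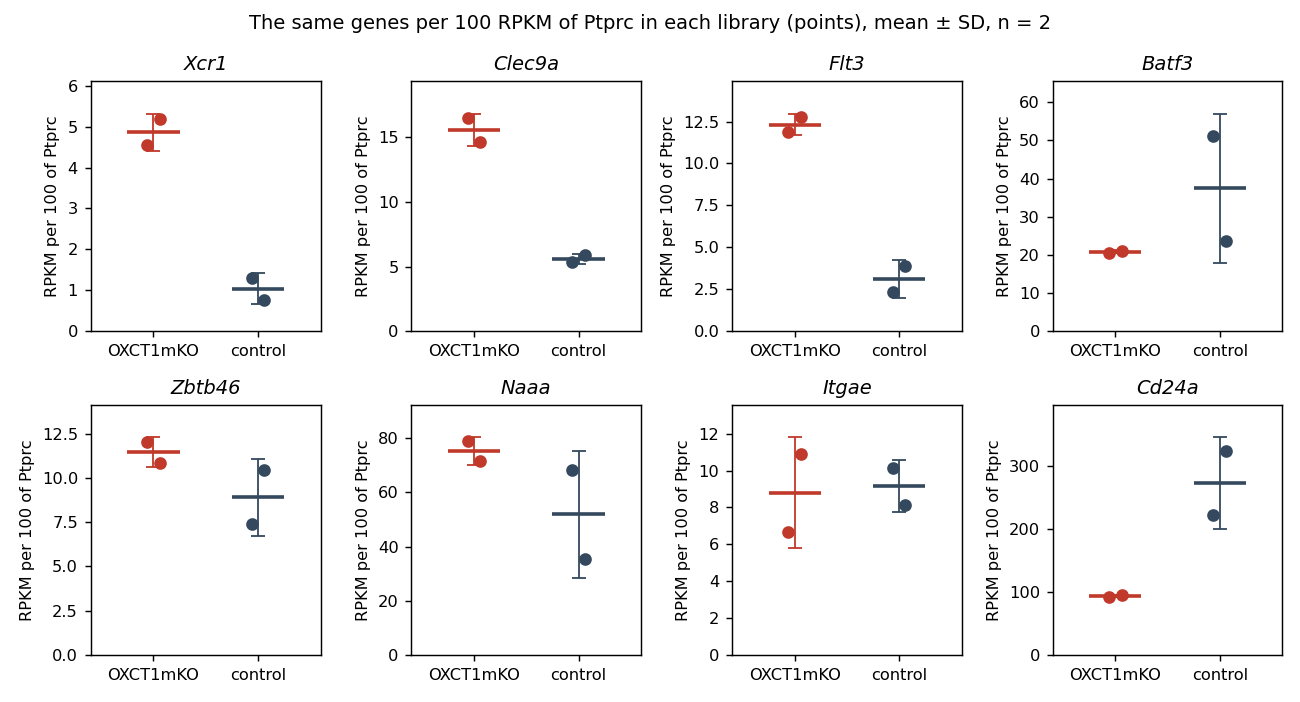
RPKM of the 8 cDC1 genes per 100 RPKM of the leukocyte gene Ptprc, with OXCT1mKO in red at the left and control in dark blue at the right. Points are libraries, lines are means and whiskers are SD (n = 2), and axes start at 0. Xcr1, Clec9a and Flt3 remain far apart, Itgae overlaps, and Batf3 and Cd24a are higher in both control libraries.

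Markers of other cells that transcribe these genes moved with some of them. For Cd24a, the epithelial genes Epcam and Cldn4 also peaked in control 2: Epcam had 52.3 and 58.5 RPKM in OXCT1mKO libraries, against 61.9 and 98.2 RPKM in control libraries. Krt8, Krt18, Krt19, Elf3 and Gpc3 peaked there too, whereas Afp and Sox9 peaked in control 1 and Cldn7 in OXCT1mKO 1. The 10 epithelial and hepatoma genes summed to 804 and 780 RPKM in OXCT1mKO libraries, against 1003 and 1435 RPKM in control libraries, and 3 of 10 fell, led by Afp (-1.80 ± 0.21). The share of all genes tested that fell was 16.4%. The summed neutrophil and B cell genes were also highest in control 2, although the neutrophil genes Csf3r and Cxcr2 were highest in OXCT1mKO libraries. The 10 neutrophil genes summed to 592 and 410 RPKM in OXCT1mKO libraries, against 173 and 1343 RPKM in control libraries, with 1 of 9 tested, Retnlg, lower. The 8 B cell genes summed to 44.1 and 47.0 RPKM in OXCT1mKO libraries, against 21.3 and 78.3 RPKM in control libraries, with 0 of 7 tested past the limma threshold and 0 at an unadjusted p under 0.05. Erythroid genes, which peaked in control 1 instead, summed to 330 and 309 RPKM in OXCT1mKO libraries, against 24385 and 846 RPKM in control libraries, with 0 of 5 tested past the limma threshold and 0 at an unadjusted p under 0.05, and the defining gene Slc4a1 was listed at 0 in OXCT1mKO 1. The part of these cells in the values of Cd24a was not tested.

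For Itgae, no T cell gene rose and several fell. The 11 T cell genes in the table summed to 59.3 and 102 RPKM in OXCT1mKO libraries, against 262 and 171 RPKM in control libraries, and 5 of 11 fell, led by Lat (-1.76 ± 0.29) and Cd3d (-1.73 ± 0.30). Over all genes tested, 16.4% fell and 32.8% passed in either direction. Of 8 natural killer cell genes 3 rose and 2 fell, with summed levels of 372 and 370 RPKM in OXCT1mKO libraries, against 248 and 206 RPKM in control libraries. Tyrobp, which all myeloid cells transcribe, made up most of these sums, and the other 7 genes summed to 29.5 and 43.3 RPKM in OXCT1mKO libraries, against 65.6 and 45.7 RPKM in control libraries. Ncr1, a counted rise with a control mean of 0.713 RPKM, passed the filter on low values through the OXCT1mKO libraries alone. Eomes, a counted fall with an OXCT1mKO mean of 0.891 RPKM, passed it through the control libraries alone. Itgae, Lat and Cd3d were all higher in OXCT1mKO 2 than in OXCT1mKO 1, Cd3d having 4.55 and 8.30 RPKM there. The part of T cells in the values of Itgae was not tested.

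For Zbtb46, 10 endothelial genes summed to 943 and 859 RPKM in OXCT1mKO libraries, against 475 and 589 RPKM in control libraries, and 6 of 10 rose, while 16.4% of all genes tested did. Ptprb (1.50 ± 0.18) and Kdr (1.30 ± 0.14), the largest changes, were close to Zbtb46 in size. The median of the list was lower at 0.75, and 4 genes did not pass. For Naaa, the 12 macrophage and Kupffer cell genes summed to 1697 and 1681 RPKM in OXCT1mKO libraries, against 1429 and 725 RPKM in control libraries, and control 2 was the lowest library for both. C1qa, C1qb and C1qc, which did not pass, made up most of these sums. Each gene of the list was lowest in control 2 except Timd4, which was lowest in control 1. The part of endothelial cells and macrophages in Zbtb46 and Naaa was not tested. Of 10 hepatocyte genes, 2 rose and 2 fell, and their sums were 698 and 479 RPKM in OXCT1mKO libraries, against 591 and 510 RPKM in control libraries. Cps1, a counted rise with a control mean of 0.504 RPKM, passed the filter on low values through the OXCT1mKO libraries alone.

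Finally, genes were ranked by how closely their pattern over the 4 libraries followed the mean pattern of Xcr1 and Clec9a, as the Euclidean distance between centred log2(RPKM + 1) values. The nearest were Themis2 (distance 0.121), Wdfy4 (0.141), Mir5130 (0.145), Nfam1 (0.165) and Kctd12 (0.190). Themis2 had 32.4 and 30.7 RPKM in OXCT1mKO libraries, against 8.90 and 7.83 RPKM in control libraries, and Nfam1 had 16.8 and 14.5 RPKM in OXCT1mKO libraries, against 3.93 and 3.78 RPKM in control libraries. Mir5130 and Kctd12 share 84 exon bases on the same strand, so these rows can share reads, and Kctd12 also shares 3805 of its 6057 exon bases with Gm26778 on the opposite strand. Of the other genes of the set, Flt3 was nearest at 0.465, followed by Naaa (0.622), Zbtb46 (0.687), Itgae (1.10), Batf3 (1.62) and Cd24a (2.24). With 4 libraries in 2 groups, the distance mostly measures the size of the difference between groups.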

How the data were processed

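The deposited file is 1 table of RPKM values made by the authors, in which rows are gene symbols and columns are samples, and it was used without rescaling. Per the submitters' processing notes, STAR 2.10, R 4.0.5 and build mm10 were used, with no role stated. How reads were counted, with or without strand and on which annotation, is not stated in these sources. Columns were matched to samples, and samples to groups and replicate numbers, by the sample titles.

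Values were transformed to log2(RPKM + 1), which understates the change of low genes. The 12523 genes with a mean of at least 1 RPKM entered a linear model with a group term over all 4 libraries and a variance trend (limma 3.58.1, R 4.3.3), and p-values are two-sided and adjusted by Benjamini-Hochberg over all genes. Alternatives were other pseudocounts (0.1 and 0.5 RPKM), filters, scalings, no variance trend, a replicate block and each library left out, and 1 scaling on leukocyte genes was added after the data were seen. The script was tested on simulated data. An exact permutation test of 2 against 2 libraries cannot go below a two-sided p of 0.333. The labels do not say that samples are separate animals, so the spread behind the p-values may be technical.

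The depth in reads was estimated from values under 0.05 RPKM and GENCODE M21 exon lengths (build GRCm38, the same assembly as mm10), and read numbers given from it are approximate. Gene positions come from that annotation, and promoters from RefSeq, build GRCm38.p6.

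The 8 genes and the 20 gene lists were chosen with earlier results of these data known. Named genes were the 8, Oxct1, Ptprc, the lists of cDC1 genes and of ligands, partners and related enzymes, up to 3 genes with the largest change in each other list, markers of cells that transcribe one of the 8, and the 5 genes nearest in pattern, leaving out predicted and clone names. Clec1b, BC037032, Gm26778 and Sec61a1 were named after their overlaps or values were seen.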

Additional observations from a re-analysis of the deposited data

How the results depend on the processing

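The rises of Xcr1, Clec9a, Flt3 and Zbtb46 kept their direction under each alternative in which they were tested and lost their call there only without an OXCT1mKO library, but a minimum mean of 5 RPKM left Xcr1, Flt3 and Zbtb46 untested. Of the 8 genes, 6 passed in the fit described, against 2 with a minimum mean of 5 RPKM, which left 4 of them to test, and 0 to 7 when 1 library was left out. Of the other cDC1 genes, 15 passed, and 0 to 16 did with 1 library left out. Log2 fold changes without OXCT1mKO 1 and without OXCT1mKO 2 were 2.27 and 2.17 for Flt3 and 1.72 and 1.57 for Xcr1. They were 1.99 and 2.13 for Clec9a, 1.63 and 1.76 for Naaa, and 1.17 and 1.29 for Zbtb46. Itgae had 1.14 and 0.54, Batf3 0.40 and 0.36, and Cd24a -0.32 and -0.38. Such fits assume that a single OXCT1mKO library varies like the controls. Over all genes tested, 4110 passed, against 2340 without the filter on low values, 7691 with leukocyte genes set equal, and 1 to 4418 with 1 library left out. Equal RPKM sums without globin genes moved the split to 2718 upward and 1479 downward, from 2058 and 2052. Batf3 was 0.88 without control 1 and changed sign without control 2 (-0.12), and the cause was not tested. It was -0.28 with leukocyte genes set equal, a scaling that moves every gene down by the same amount. Oxct1 did not pass without the filter (-0.37, limma adjusted p 0.0504), with equal sums (-0.28, 0.0627) or with the replicate block (-0.37, 0.0577), and was -0.41 to -0.34 with 1 library left out, passing without control 1 alone.

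Control 1 and OXCT1mKO 1 share a replicate number, as do control 2 and OXCT1mKO 2, but the deviations of same-numbered libraries from their group means had a correlation across genes of 0.0545, so the numbers were not taken to pair them. With the replicate number as a block, 5 of the 8 genes, 15 of the other cDC1 genes and 3606 genes in all passed, Itgae being lost (limma adjusted p 0.0517). Depth limits Xcr1 most, with an estimated 22 reads in control 2.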
